A study of Mus musculus with 45 samples.

Results

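Glycolysis splits glucose into pyruvate in the cytosol, and lactate dehydrogenase interconverts pyruvate and lactate. The pyruvate dehydrogenase complex turns pyruvate into acetyl-CoA inside the mitochondrion, where the citric acid cycle oxidises it and passes electrons to the respiratory chain. Glucose is the main fuel of the adult brain, and these enzymes are present in nearly every brain cell, with isozymes that differ between neurons and astrocytes.

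The transcripts described here are those of 36 enzyme genes, out of 15897 genes measured in mouse hippocampus, chosen from a list of gene symbols by their place in the pathway and not by their values. All 36 listed genes were found in the table of expression values. They comprise 16 genes of glycolysis and lactate dehydrogenase, 4 of the pyruvate dehydrogenase complex and 16 of the citric acid cycle. Aldoa, an aldolase, appears under 2 Ensembl identifiers, both annotated as protein-coding. The identifier taken as the member had a mean level of 15.29, and the other, left out, had a mean level of 5.45.

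Hippocampi came from 45 female mice on a C57Bl/6J background, each mouse giving a single sample, in 8 groups defined by genotype and diet. A+ mice carried APPswe/PS1dE9, a chimeric mouse and human APP with the Swedish mutation and a human presenilin lacking an exon, both driven by the prion protein promoter. T+ mice carried human tau P301L driven by the CaMKII promoter, A+T+ mice came from crossing both heterozygous lines, and AwTw littermates carried neither transgene. From 7 months of age mice received either a standard diet (STD, 5% fat, 0% cholesterol) or a Typical Western Diet (TWD, 21% fat, 0.15% cholesterol, 35% sucrose), and tissue was taken after perfusion at 13 months. AwTw, AwT+ and A+Tw each had 6 mice on TWD, as did A+T+. On STD there were 6 AwTw, 6 AwT+, 5 A+Tw and 4 A+T+ mice. Each diet spanned both batches given in the labels, with 8 STD and 12 TWD mice in batch 0 and 13 STD and 12 TWD mice in batch 1.

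Levels are log2-scale values after variance stabilization and batch removal, so a difference of 1 is a doubling at high expression. The values hold no read counts, so the depth of each library is unknown and no counting interval is given. The APP/PS1 label was checked by App, which was higher in A+ than in Aw mice by 0.90 and its levels did not overlap (14.29 to 14.86 in Aw, 15.05 to 15.80 in A+), and the tau P301L label was not checked here. In bulk tissue, fewer cells of a type and less RNA per cell cannot be told apart.

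Promoter windows of 5 members are shown because they are the 3 called members with the highest diet differences described next and the 2 called lower. Each window holds 250 bases before and 50 after the annotated start (RefSeq, GRCm38.p6), written 5′ to 3′ on the gene's own strand. Gapdh (glyceraldehyde-3-phosphate dehydrogenase) lies at chr6:125165724-125166023 on the minus strand, Eno1 (enolase) at chr4:150236458-150236757 on the plus strand, and Suclg1 (the shared alpha subunit of succinyl-CoA ligase) at chr6:73248255-73248554 on the plus strand. Suclg2 (its GTP-specific beta subunit) lies at chr6:95718797-95719096 on the minus strand and Dld (dihydrolipoamide dehydrogenase, the E3 subunit of several dehydrogenase complexes) at chr12:31351422-31351721 on the minus strand. Capitals mark the core of the hypoxia response element, searched as ACGTG or GCGTG on both strands.
Gapdh: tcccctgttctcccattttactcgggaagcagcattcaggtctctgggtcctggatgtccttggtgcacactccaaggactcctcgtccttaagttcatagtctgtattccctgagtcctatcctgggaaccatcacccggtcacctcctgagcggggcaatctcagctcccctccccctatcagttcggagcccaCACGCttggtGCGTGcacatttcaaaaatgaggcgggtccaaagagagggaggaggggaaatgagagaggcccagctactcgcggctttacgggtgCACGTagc
Eno1: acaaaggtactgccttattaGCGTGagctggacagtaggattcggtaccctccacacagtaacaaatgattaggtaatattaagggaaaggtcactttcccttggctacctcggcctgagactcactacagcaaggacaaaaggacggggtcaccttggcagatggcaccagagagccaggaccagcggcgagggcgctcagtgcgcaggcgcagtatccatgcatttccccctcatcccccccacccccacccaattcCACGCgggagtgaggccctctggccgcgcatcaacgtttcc
Suclg1: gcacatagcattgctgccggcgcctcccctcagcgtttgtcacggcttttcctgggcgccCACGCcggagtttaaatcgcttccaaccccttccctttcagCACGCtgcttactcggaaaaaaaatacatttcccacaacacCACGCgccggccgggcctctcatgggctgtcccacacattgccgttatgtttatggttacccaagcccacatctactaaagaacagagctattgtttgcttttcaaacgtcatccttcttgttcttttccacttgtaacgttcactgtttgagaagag
Suclg2: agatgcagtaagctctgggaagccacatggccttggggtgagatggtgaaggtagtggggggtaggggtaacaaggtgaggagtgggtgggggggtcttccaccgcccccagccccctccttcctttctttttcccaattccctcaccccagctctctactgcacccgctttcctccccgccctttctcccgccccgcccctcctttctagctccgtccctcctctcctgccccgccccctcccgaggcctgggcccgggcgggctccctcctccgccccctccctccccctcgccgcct
Dld: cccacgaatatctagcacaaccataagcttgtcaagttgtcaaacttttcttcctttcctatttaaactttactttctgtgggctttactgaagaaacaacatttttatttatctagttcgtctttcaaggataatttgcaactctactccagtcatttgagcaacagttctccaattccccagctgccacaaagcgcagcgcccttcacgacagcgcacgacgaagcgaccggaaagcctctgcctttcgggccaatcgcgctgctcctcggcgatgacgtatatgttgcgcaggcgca
These letters occurred 3 times in the window of Gapdh, 2 times in that of Eno1, 3 times in that of Suclg1, and not at all in those of Suclg2 and Dld. These 5 were chosen by their diet difference, and over all members with a window the core was held by 12 of 16 called higher on TWD, 0 of 2 called lower and 9 of 16 not called. The windows of Gpi1, Aldoa, Tpi1 and Idh3b, called higher, held 0, and those of Pdha1 (4), Sdha (3) and Pdhb (2), with negative differences, held several. Over the 34 members with a window, 21 held the core (10 of 16 in glycolysis, 2 of 4 in the pyruvate dehydrogenase complex, 9 of 14 in the citric acid cycle), beside 43.8% of all 32851 windows. The GC box GGGCGG, also searched on both strands, was present in 21 of the 34 and in 35.7% of all windows. The estrogen-related receptor motif AAGGTCA was present in 3 of the 34 and in 4.72% of all. Member windows were richer in G and C than windows in general, with medians of 57.3% in glycolysis, 61.5% in the pyruvate dehydrogenase complex and 60.8% in the citric acid cycle beside 52.7% over all, and a match of letters is a description and not a binding site.

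The first question was whether the diet moved these enzymes over all genotypes. Most glycolysis transcripts rose on TWD, citric acid cycle transcripts were split, and the pyruvate dehydrogenase complex had negative differences of which 1 passed the test. In a limma fit with genotype, diet and batch, adjusted over all genes, 19 of the 36 members passed an adjusted p of 0.05, 17 of them higher on TWD and 2 lower. Over all genes 29.4% passed, 16% higher and 13.4% lower, so the share of members called higher (17 of 36) stood above the genome-wide share and the share called lower (2 of 36) stood below it. By list, 11 of 16 glycolysis members rose and none fell, with a median difference of 0.20. In the citric acid cycle 6 of 16 rose and 1 fell (median 0.06), and in the pyruvate dehydrogenase complex none of 4 rose and 1 fell (median -0.08). The median over all genes was -0.0014. Under quantile normalization, which shifted the split of called members from 17 higher and 2 lower to 14 higher and 5 lower (30.4% of all genes passing), 9 of 16 glycolysis members were called higher and Hk1 and Pgk1 turned to -0.01 and -0.02.

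**Figure D1:**
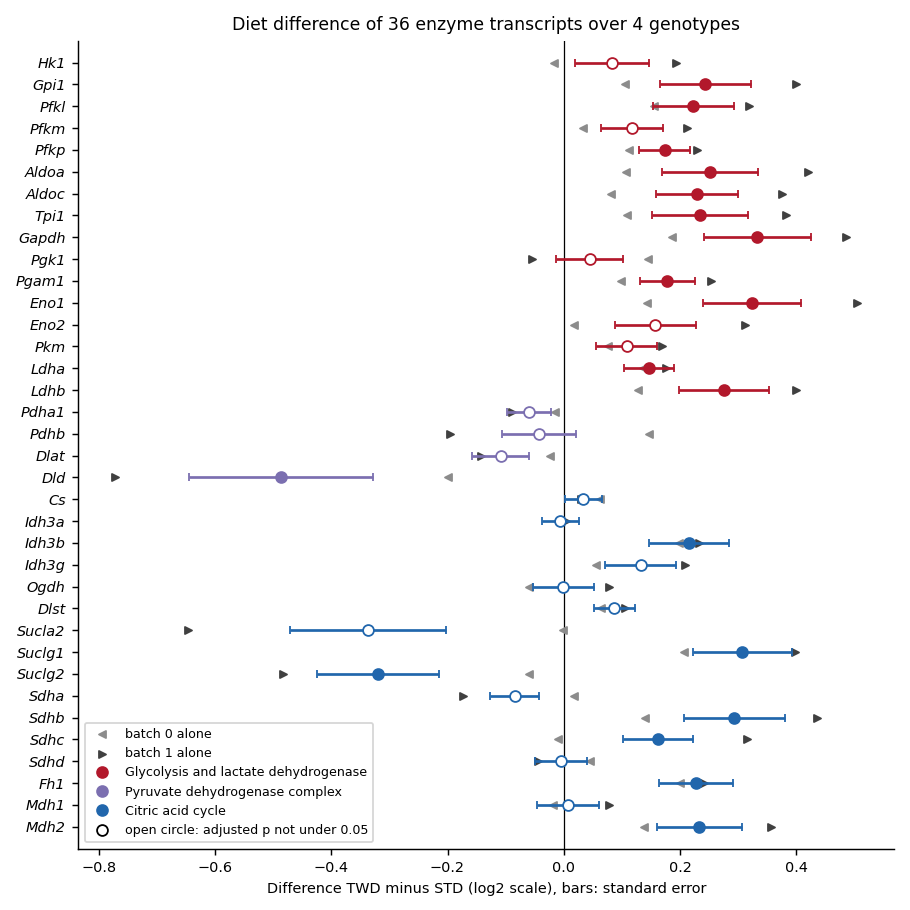
Difference between TWD and STD (log2 scale, horizontal axis) for each of the 36 transcripts in pathway order, with circles for the fit over all genotypes, bars for its standard error, filled circles for adjusted p under 0.05, and triangles for each batch alone. All 16 glycolysis circles lie right of 0 and all 4 pyruvate dehydrogenase circles left of it, while Hk1 and Pgk1 turn slightly negative under quantile normalization.

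In the upper part of glycolysis, hexokinase 1 (Hk1), which phosphorylates glucose, had levels of 12.76 to 13.51 on STD (median 13.08) and 12.69 to 13.53 on TWD (median 13.17), and did not pass the test (difference 0.08 ± 0.06 SE, adjusted p = 0.307). Gpi1, the hexose phosphate isomerase, rose by 0.24 ± 0.08 (adjusted p = 0.0236), from a median of 13.65 (13.29 to 14.29) to 13.91 (13.43 to 14.44). Of the phosphofructokinases, which catalyse the committed step, the liver type Pfkl rose by 0.22 (adjusted p = 0.0206) and the platelet type Pfkp by 0.17 (adjusted p = 0.0157). The muscle type Pfkm had a difference of 0.12 with an adjusted p of 0.083 and was not called. The isozymes all had positive differences of 0.12 to 0.22. Pfkl moved from a median of 12.05 (11.67 to 12.59) to 12.21 (11.85 to 12.68), and Pfkm lay at 12.47 (12.21 to 12.78) on STD and 12.58 (12.24 to 12.83) on TWD. Pfkp moved from a median of 11.80 (11.68 to 12.04) to 12.06 (11.75 to 12.27), and the diets overlapped in each of these genes. For Pfkp, 12 of 24 TWD mice lay above every STD mouse and 7 of 21 STD mice lay below every TWD mouse.

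The aldolases rose together. Aldoa, the general isozyme, went from a median of 15.11 (14.76 to 15.81) to 15.41 (14.94 to 15.91), a difference of 0.25 ± 0.08 (adjusted p = 0.0251). Aldoc, the isozyme typical of astrocytes, went from 13.73 (13.45 to 14.34) to 14.04 (13.70 to 14.37), a difference of 0.23 ± 0.07 (adjusted p = 0.0197). The gap between them within a mouse was alike on both diets (1.33 ± 0.10 SD on STD, n = 21, and 1.35 ± 0.16 on TWD, n = 24). Tpi1, triose phosphate isomerase, also rose (0.23, adjusted p = 0.0321).

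Gapdh had the highest difference of the 36. Its level ran from 15.31 to 16.38 on STD (median 15.65) and from 15.41 to 16.60 on TWD (median 16.02), a difference of 0.33 ± 0.09 with a 95% interval of 0.15 to 0.51 (adjusted p = 0.0159). The diets overlapped, but 20 of 24 TWD mice lay above the STD median and 3 lay above every STD mouse. Pgk1, phosphoglycerate kinase, the next enzyme of the path, differed by 0.04 ± 0.06 and did not pass (adjusted p = 0.559). Pgam1, phosphoglycerate mutase, rose by 0.18 ± 0.05 (adjusted p = 0.0157), from a median of 12.78 (12.67 to 13.22) to 13.02 (12.74 to 13.26), and 23 of 24 TWD mice lay above its STD median. Near-identical sequence limits several of these values: 88.0% of the Gapdh transcript is shared, at 98% identity or more over at least 50 bases, with 41 other annotated genes, 17 of them in the table. The shared part was 85.6% for Eno1, 76.8% for Ldhb, 68.8% for Pgk1, 65.5% for Pkm, 43.1% for Pgam1, 38.7% for Suclg2 and 36.3% for Gpi1, so reads of these genes could have been divided between copies. The highest mean level of a copy in the table was 10.03 for Pgk1 (itself 11.87), 8.47 for Eno1 (14.04) and 7.39 for Gapdh (15.88). It was 5.64 or lower for Gpi1, Pkm and Pgam1, while Ldhb and Suclg2 shared sequence with no gene in the table.

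Eno1, the enolase of glia and most tissues, was nearly as far up as Gapdh. It ran from 13.31 to 14.60 on STD (median 13.80) and from 13.72 to 14.73 on TWD (median 14.16), a difference of 0.32 ± 0.08 (adjusted p = 0.0157). Only 2 of 24 TWD mice lay below the STD median, and 7 of 21 STD mice lay below every TWD mouse. Eno2, the neuronal enolase, had medians of 13.88 (13.47 to 14.30) on STD and 14.08 (13.58 to 14.35) on TWD, differed by 0.16 ± 0.07 and was not called (adjusted p = 0.078). The level of Eno1 minus that of Eno2 within a mouse, whose absolute size also holds transcript length, was -0.01 ± 0.14 on STD and 0.16 ± 0.20 on TWD. Pkm, pyruvate kinase, the last step before lactate, had medians of 14.68 (14.47 to 14.97) and 14.81 (14.36 to 15.14) and was not called (0.11 ± 0.05, adjusted p = 0.103).

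Both lactate dehydrogenase subunits rose. Ldhb, the heart type that favours lactate oxidation, went from a median of 12.72 (12.37 to 13.22) to 12.99 (12.53 to 13.54), a difference of 0.28 ± 0.08 (adjusted p = 0.0159), with 6 of 24 TWD mice above every STD mouse. Ldha, the muscle type that favours lactate production, went from 11.85 (11.67 to 12.21) to 12.07 (11.71 to 12.26), a difference of 0.15 ± 0.04 (adjusted p = 0.0179). Within a mouse, Ldha minus Ldhb was -0.85 ± 0.17 on STD and -0.98 ± 0.24 on TWD, a shift smaller than the SD between mice. That SD is not the error of a mean, and the shift was not tested.

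**Figure D2:**
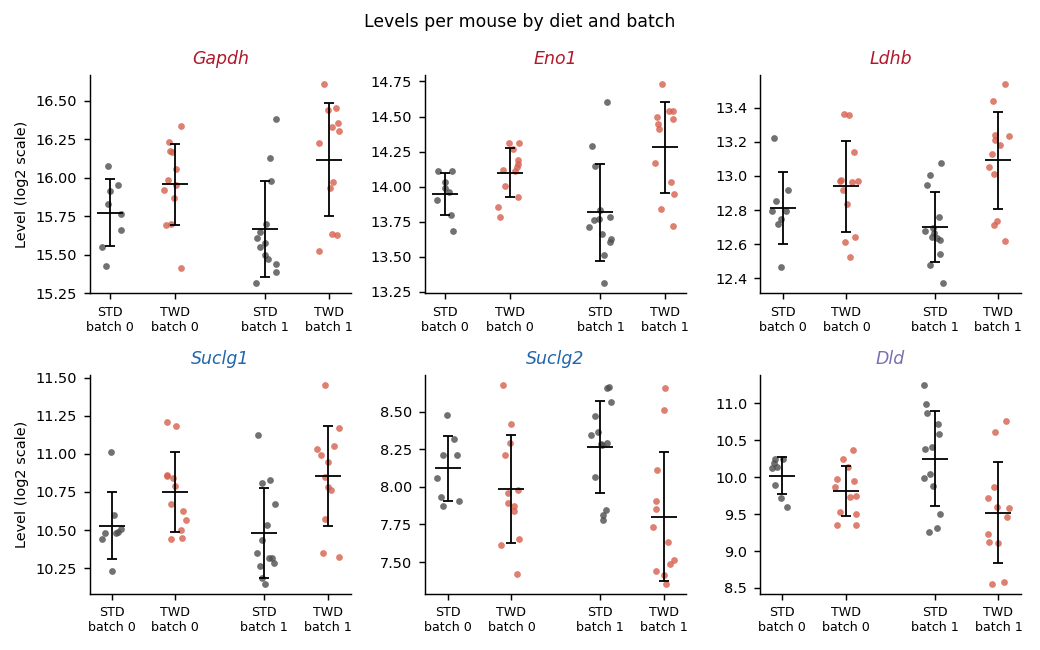
Levels (log2 scale, vertical axis) of 6 transcripts in every mouse, split by diet (grey STD, red TWD) and batch, with the mean and SD in black. Gapdh, Eno1, Ldhb and Suclg1 are higher on TWD in both batches and Dld and Suclg2 lower, with the wider separation in batch 1 and overlap in every panel.

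At the gate between the pathways, Pdha1, the catalytic alpha subunit of pyruvate dehydrogenase, ran from 11.51 to 11.73 on STD (median 11.61) and from 11.24 to 11.78 on TWD (median 11.58) and did not pass (difference -0.06 ± 0.04, adjusted p = 0.207). Its partner Pdhb differed by -0.04 (adjusted p = 0.620), and Dlat, the E2 acetyltransferase, by -0.11 (adjusted p = 0.081). Dld, the subunit that the complex shares with the 2-oxoglutarate and branched-chain dehydrogenases, fell. It ran from 9.26 to 11.25 on STD (median 10.14) and from 8.56 to 10.76 on TWD (median 9.65), a difference of -0.49 ± 0.16 (adjusted p = 0.0241), with 5 of 24 TWD mice below every STD mouse and 3 of 21 STD mice above every TWD mouse. Dld and Suclg2, the only members called lower, fell outside the rule for naming genes and are described because their values had been seen, as are Tpi1 and Sdhc, the other called members the rule left out, and the uncalled members beside their partners.

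In the citric acid cycle, some subunits passed the test and others did not. Citrate synthase (Cs), which admits acetyl-CoA, had medians of 12.11 (11.99 to 12.26) on STD and 12.15 (11.92 to 12.36) on TWD and differed by 0.03 ± 0.03 (adjusted p = 0.419). The 95% interval of -0.03 to 0.10 lay below the difference of Gapdh, though these genes were not tested against each other. Among the isocitrate dehydrogenase subunits, the regulatory Idh3b rose by 0.22 ± 0.07 (adjusted p = 0.0225), from a median of 11.73 (11.40 to 12.36) to 11.98 (11.54 to 12.36). The catalytic Idh3a had a median of 11.42 on both diets (11.28 to 11.59 on STD and 11.17 to 11.59 on TWD, difference -0.01 ± 0.03, adjusted p = 0.893), and Idh3g differed by 0.13 without passing (adjusted p = 0.089). Idh3b minus Idh3a within a mouse was 0.35 ± 0.23 on STD and 0.57 ± 0.26 on TWD. With the trend over transcript length and GC content removed, described further on, Idh3a differed by 0.22 (adjusted p = 0.0355) and Idh3b by 0.18 (adjusted p = 0.0341), so the gap between these subunits depended on that choice. Of the 2-oxoglutarate dehydrogenase complex, neither Ogdh, the E1 subunit, with medians of 12.18 (11.94 to 12.55) and 12.22 (11.81 to 12.46) (adjusted p = 0.990), nor Dlst, the E2 subunit (0.09, adjusted p = 0.060), passed.

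Subunits of succinyl-CoA ligase had differences of opposite sign. Suclg1, the alpha subunit, rose from a median of 10.48 (10.15 to 11.12) to 10.81 (10.32 to 11.45), a difference of 0.31 ± 0.09 (adjusted p = 0.0159), and 7 of 21 STD mice lay below every TWD mouse. Suclg2, the GTP-specific beta subunit, fell from 8.28 (7.78 to 8.67) to 7.87 (7.36 to 8.68), a difference of -0.32 ± 0.10 (adjusted p = 0.0247), and 10 of 24 TWD mice lay below every STD mouse. The ATP-specific beta subunit Sucla2 had a difference of -0.34 ± 0.13 and missed the threshold (adjusted p = 0.0526). Within a mouse, Suclg1 minus Suclg2 was 2.29 ± 0.49 on STD and 2.91 ± 0.64 on TWD, and Suclg1 minus Sucla2 was -0.22 ± 0.55 and 0.42 ± 0.74.

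Succinate dehydrogenase, which is also complex II of the respiratory chain, was uneven as well. The iron-sulfur subunit Sdhb rose from a median of 10.63 (10.27 to 11.43) to 10.94 (10.49 to 11.52), a difference of 0.29 ± 0.09 (adjusted p = 0.0178). The membrane anchor Sdhc rose by 0.16 (adjusted p = 0.0381), whereas the other anchor, Sdhd, did not pass (-0.00, adjusted p = 0.942). The flavoprotein Sdha, which holds the catalytic site, differed by -0.08 ± 0.04 (adjusted p = 0.119). Fumarase (Fh1) rose by 0.23 ± 0.06 (adjusted p = 0.0159), from 9.93 (9.66 to 10.46) to 10.16 (9.80 to 10.62). Mdh2, the mitochondrial malate dehydrogenase, rose by 0.23 ± 0.07 (adjusted p = 0.0216), from 12.33 (12.01 to 12.86) to 12.58 (12.10 to 13.14), while the cytosolic Mdh1 differed by 0.01 (adjusted p = 0.920), and Mdh2 minus Mdh1 went from -0.60 ± 0.15 to -0.37 ± 0.25. Transcript GC content, to which the diet difference was related (described further on), was 53.9% for Sdhb and 54.1% for Sdhc. It was 49.4% for Sdhd and 50.3% for Sdha, and 55.5% for Mdh2 beside 48.4% for Mdh1. Fh1, which also rose, had 45.6%. The part of GC content in the gaps between these subunits was not tested.

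Set against each other per mouse, the mean of the 16 glycolysis levels was 13.31 ± 0.18 on STD and 13.50 ± 0.18 on TWD, and that of the 16 citric acid cycle levels 11.09 ± 0.08 and 11.14 ± 0.08. The glycolysis mean minus the citric acid cycle mean was 2.22 ± 0.12 on STD and 2.36 ± 0.16 on TWD, a fitted difference of 0.14 beside a residual SD of 0.14 between mice. This is a description of 2 lists and carries no test. The difference was 0.04 in batch 0 and 0.23 in batch 1, 0.08 after quantile normalization, and 0.02 with the trend over transcript length and GC content removed.

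**Figure D3:**
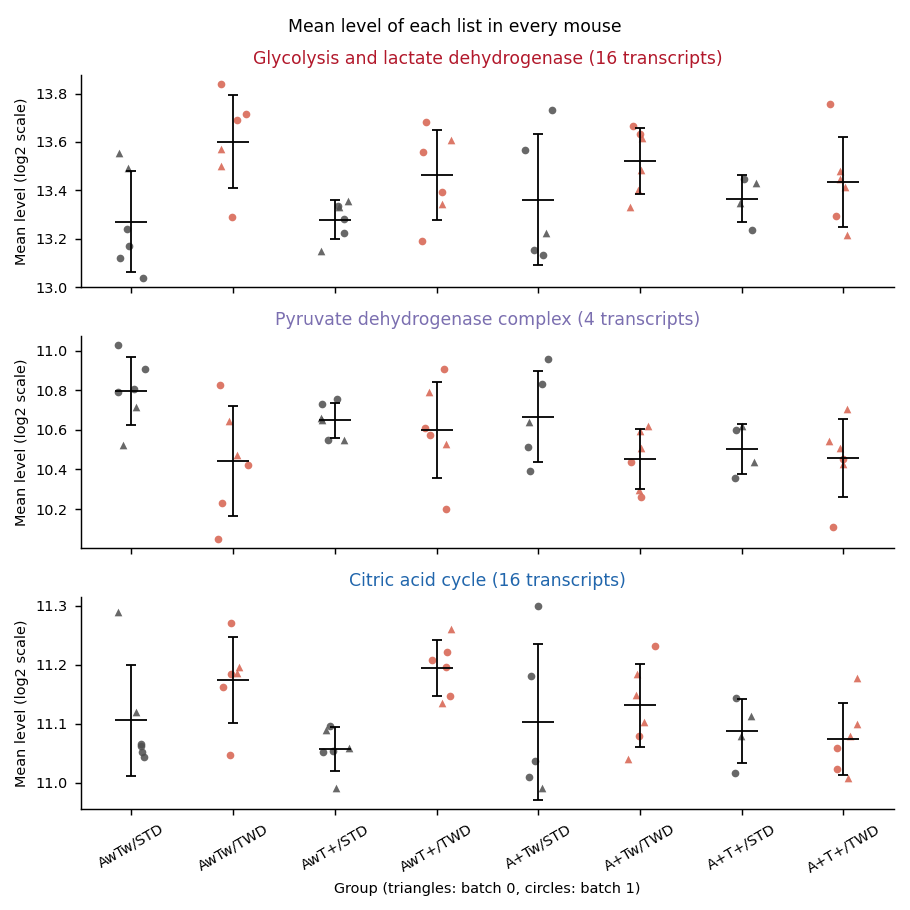
Mean level (log2 scale, vertical axis) of the members of each list in every mouse, by group, with triangles for batch 0, circles for batch 1, and the group mean and SD in black. The glycolysis mean runs from 13.04 to 13.73 in STD mice and from 13.19 to 13.84 in TWD mice, and the diets overlap in every genotype. The citric acid cycle mean does not overlap in AwT+ (10.99 to 11.10 on STD, 11.14 to 11.26 on TWD). No gene passed for diet in AwT+, and the share of other gene lists without such overlap was not counted.

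The batches gave diet differences of different size, a contrast that was not itself tested. Genotypes were split unevenly between the batches. On TWD, batch 0 held 4 A+T+, 4 A+Tw, 2 AwT+ and 2 AwTw mice, and batch 1 held 2, 2, 4 and 4. On STD, batch 0 held 2, 1, 3 and 2 of these, and batch 1 held 2, 4, 3 and 4. Batch and genotype mix therefore cannot be told apart in these differences. In batch 1, 23 of 36 members passed (18 higher, 5 lower, with 40.9% of all genes called), among them 18 of the 19 called over both batches. The mice of each batch were part of the fit that called these 19, so neither batch is a separate test of them. In batch 0 no member passed, nor did any other gene (0%), with 2 members and 5.55% of all genes at an unadjusted p under 0.05. Of the 19 called members 18 kept their sign in batch 0, and Sdhc went to -0.01. The median glycolysis difference was 0.11 in batch 0 and 0.31 in batch 1, that of the citric acid cycle 0.05 and 0.09, and that of the pyruvate dehydrogenase complex -0.02 and -0.17. Gapdh differed by 0.19 in batch 0 and 0.48 in batch 1, and Dld by -0.20 and -0.77. Fumarase differed by 0.20 and 0.24.

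Mice of the same group also varied along a leading component of the residuals over all genes, and many of these enzymes correlated with it. Gene weights came from the residuals but were applied to the levels themselves, with only gene means removed, so the score can hold diet as well. Scaled to an SD of 1 over mice, the score was -0.45 ± 0.85 on STD and 0.39 ± 0.97 on TWD. Glycolysis members correlated with it at a median r of 0.84 over 45 mice (15 of 16 positive), citric acid cycle members at 0.34 (from -0.93 to 0.91), and the pyruvate dehydrogenase complex at -0.63 (none of 4 positive), all descriptions, since the same mice gave score and levels. With the score in the fit, no member and no other gene passed (0%). All 19 called members, which were called in these same mice, kept their sign, and Gapdh differed by 0.07. That fit can thus take out part of the diet difference along with the variation within groups, and what part the score has in it was not tested.

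Transcript composition moved with the diet difference too. Over 15695 genes with an annotated transcript, the diet difference rose with GC content (Spearman's rho 0.62 across genes, which are not independent replicates), and over the 36 members rho was 0.69. Of 3 members under 45% GC, which include Dld and Sucla2, none had a positive difference, against 6 of 11 at 45% to 50%, 13 of 15 at 50% to 55%, and 7 of 7 above. The median GC content was 54.0% in glycolysis and 49.4% in the citric acid cycle. After the trend over length and GC content was removed from each mouse, 10 of the 19 called members still passed (18.4% of all genes did), and 4 glycolysis members (Pfkp, Gapdh, Eno1 and Ldhb) were called higher in place of 11. In the citric acid cycle 7 were then called higher and 2 lower, and Fh1 (0.32) and Suclg1 (0.30) had the highest differences of all members. Gapdh went to 0.19, Dld to -0.25 and Suclg2 to -0.27, each still called.

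**Figure D4:**
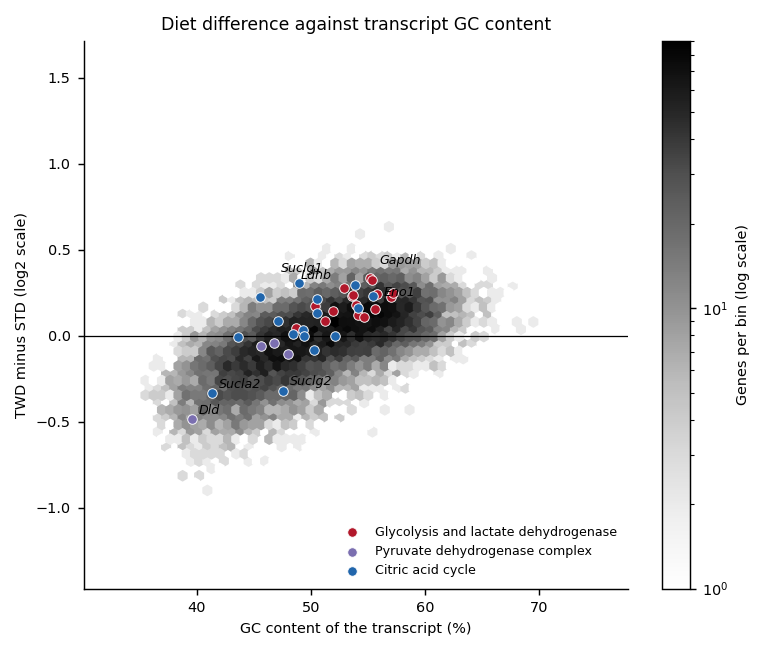
Diet difference over all genotypes (TWD minus STD, log2 scale, vertical axis) against the GC content of the transcript (percent, horizontal axis), with all genes as grey hexagons shaded by number on a log scale and the 36 members as coloured points. The grey cloud rises from left to right (rho 0.62 over 15695 genes), and members lie along it, with Dld and Sucla2 at the low end and Suclg1 above the cloud's centre.

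Markers of hippocampal cell types had calls in both directions, to be read beside the 29.4% of all genes that passed (16% higher, 13.4% lower). Neuron markers had 2 of 8 called higher and 1 lower, and their mean level ran from 13.21 to 13.73 on STD and from 13.19 to 13.66 on TWD. Astrocyte markers had 1 of 6 higher and 2 lower (11.48 to 11.99 and 11.06 to 12.14). Oligodendrocyte markers had 3 of 5 higher (12.18 to 12.81 and 12.12 to 12.82), and microglia markers 1 of 5 higher and 1 lower (8.54 to 9.38 and 8.47 to 9.44). No endothelial, choroid plexus or hippocampal subfield marker was called. Choroid plexus markers ranged widely between mice on both diets (5.89 to 9.87 on STD and 5.69 to 9.55 on TWD). Their medians per mouse were 8.93 on STD and 8.29 on TWD, and the part of any marker list in the enzyme differences was not tested.

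Within single genotypes, members passed for diet in AwTw mice. There 8 were called, all higher (Gpi1, Aldoa, Aldoc, Tpi1, Gapdh, Eno1, Eno2 and Mdh2), where 9.35% of all genes passed, 6.01% higher and 3.34% lower. All 8 shared an adjusted p of 0.0498, just inside the threshold, and Sdhb (0.0503), Pfkl (0.0504) and Dld (0.0505) lay just outside. Leaving out any of 32 of the 45 mice, of whatever group, left no member called. Without AwTw/TWD replicate 5 the count was 20, without AwTw/STD replicate 6 it was 19, without AwTw/STD replicate 2 it was 16, without AwTw/TWD replicate 4 it was 14, and without each of 9 others it was 11 or 12. In batch 1 alone, with 4 AwTw mice per diet, 17 members were called, where 25% of all genes passed. In batch 0 alone, with only 2 AwTw mice per diet, no member was called, and no gene was (0%). With so few mice, a lack of calls there does not show a lack of difference.

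In AwTw mice Gapdh ran from 15.31 to 16.08 on STD (median 15.52) and from 15.63 to 16.60 on TWD (median 16.28), a difference of 0.56 ± 0.17. Eno1 ran from 13.31 to 14.11 and from 13.84 to 14.73, also a difference of 0.56 (SE 0.16). Dld ran from 9.71 to 11.25 and from 8.58 to 10.61, a difference of -0.89 ± 0.30. In all 3 genes the diets overlapped within the genotype.

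In the 3 genotypes with a transgene no member passed for diet, and no gene of the table did (0% in each). At an unadjusted p under 0.05 there were 7 members for AwT+ (7.44% of all genes), 3 for A+Tw (4.43%) and 1 for A+T+ (2.57%). Gapdh differed by 0.30 in AwT+ (95% interval -0.04 to 0.65), 0.31 in A+Tw (-0.06 to 0.68) and 0.11 in A+T+ (-0.28 to 0.49). On STD its level in the 5 A+Tw mice was 15.50, 16.38, 15.44, 15.55 and 16.13, and in the 4 A+T+ mice 15.98, 15.92, 15.76 and 15.55, so 2 of the A+Tw mice on STD lay near or above the median of 16.20 of A+Tw mice on TWD. For Fh1 in AwT+ mice, STD levels of 9.77 to 9.93 and TWD levels of 10.19 to 10.47 did not overlap (difference 0.44 ± 0.12). Its adjusted p was 0.646, and the share of all genes without such overlap was not counted. Suclg2 differed by -0.49 in A+Tw and -0.48 in A+T+ but by 0.01 in AwT+. Of 16 glycolysis members, those with a positive difference numbered 15 for AwTw, 16 for AwT+, 16 for A+Tw and 13 for A+T+, with respective medians of 0.38, 0.19, 0.16 and 0.08.

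**Figure D5:**
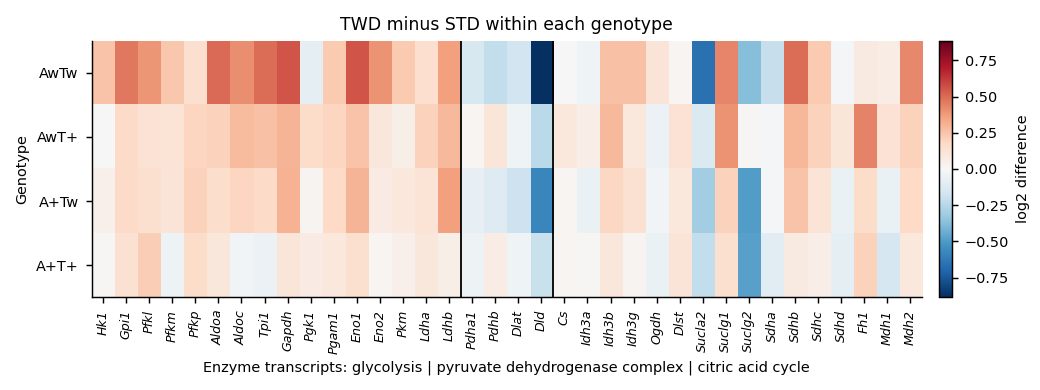
Difference between TWD and STD within each genotype (rows) for each transcript (columns), coloured on a log2 scale from blue (lower on TWD) to red (higher). Colours are deepest in AwTw, from -0.89 for Dld to 0.56 for Gapdh and Eno1, and mostly pale in A+T+, where Suclg2 is at -0.48, and the differences between genotypes passed no test.

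Whether the diet difference itself depended on genotype was tested with interaction terms against AwTw, which share the AwTw mice. No member passed for AwT+, for A+Tw or for A+T+, nor did any gene (0% for each), and 1, 0 and 2 members had an unadjusted p under 0.05, beside 4.02%, 2.21% and 6.3% of all genes. For Gapdh the diet difference in A+T+ minus that in AwTw was -0.45 with a 95% interval of -0.97 to 0.07, so neither a wholly lost nor an unaltered diet difference lay outside the interval. For Eno1 it was -0.42 (-0.89 to 0.06) and for Dld 0.69 (-0.21 to 1.58). The 2 members under 0.05 before adjustment in A+T+ were Tpi1 (-0.54, -0.99 to -0.09) and Aldoc (-0.43, -0.82 to -0.04). Each had an adjusted p of 0.560 in the limma fit. Fh1 had the only member interaction under 0.05 before adjustment in AwT+ (0.36, adjusted p = 0.780).

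Whether the transgenes moved these enzymes was tested on each diet and over both, and no member passed in any of these limma contrasts. On STD, no member differed from AwTw in AwT+ (0% of all genes called), A+Tw (0.925%) or A+T+ (1.32%), with 0, 0 and 2 members at an unadjusted p under 0.05 beside 2.39%, 5.66% and 14.3% of all genes. On TWD, none differed in AwT+ (0%), A+Tw (0.824%) or A+T+ (0.73%), with 0, 0 and 3 members under 0.05 beside 3.04%, 5.2% and 7.76%. Over both tau states and diets, A+ against Aw called 3.77% of all genes and no member, and T+ against Tw called 0.0189% of all genes and no member, with 2 and 1 members under 0.05 beside 15.1% and 5.15% of all genes. Gapdh differed by 0.05 between A+ and Aw mice (95% interval -0.13 to 0.23) and by -0.10 between T+ and Tw mice (-0.28 to 0.08). Dld was the member with the widest A+ difference (-0.25, -0.57 to 0.06). On STD, the 2 members under 0.05 before adjustment in A+T+ against AwTw were Dld (-0.74, -1.41 to -0.07) and Pdhb (-0.32, -0.58 to -0.05). In the same contrast on TWD, Dld differed by -0.05 (-0.66 to 0.55) and Pdhb by -0.03. Mdh2 in A+T+ against AwTw on TWD had a difference of -0.32, and Mdh1, Ldha and Cs were the others under 0.05 before adjustment in the contrasts on TWD and of A+ against Aw. The intervals of Gapdh and Eno1 for A+ against Aw do not reach the 0.33 and 0.32 measured for diet, but those differences have intervals of their own. The transgene and diet differences were not tested against each other.

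Genes around the pathway, from a list of 50 of which 48 were measured, had 5 called higher and 8 called lower with diet, beside a list median of -0.0032. Over all genes 16% were called higher and 13.4% lower (29.4% in all), so 13 of 48 is near the background and no result about this list, and the genes named next are descriptions. Slc16a7, the monocarboxylate transporter of neurons, fell by 0.51 (adjusted p = 0.0157), from a median of 7.63 (6.87 to 8.35) to 7.20 (5.77 to 7.76). Ppargc1a, a coactivator of mitochondrial genes, fell by 0.70 (adjusted p = 0.0157), from 9.05 (7.60 to 9.35) to 8.44 (7.04 to 9.24). Hif1a, the hypoxia-inducible factor that induces glycolytic genes, fell by 0.60 (adjusted p = 0.0172), from 9.49 (8.63 to 10.15) to 8.99 (7.32 to 9.75). Gpd2, the mitochondrial glycerol phosphate dehydrogenase, fell by 0.34 and Pfkfb2, which makes the activator of phosphofructokinase, by 0.28, while the cytosolic Gpd1 rose by 0.22. The other genes called higher, named after their values were seen, were Pgam2, Got1 and both subunits of the mitochondrial pyruvate carrier, Mpc1 (0.25) and Mpc2 (0.21).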

How the data were processed

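RNA from each hippocampus was sequenced as single 50-base reads from a stranded poly(A) library, with all libraries in a single pool. Per the labels and methods, the authors trimmed reads with Trimmomatic 0.38, removed ribosomal reads with Bowtie2 2.2.3, quantified transcripts with kallisto 0.44.0, kept genes with sufficient mean counts, applied the DESeq2 1.22.2 variance stabilizing transformation and removed batch with limma 3.38.3. The values they deposited are on a log2 scale, and batch was removed without holding the groups, which can alter differences where batch and group are unbalanced. The main fits hold batch as a covariate, whereas the medians, ranges, overlaps and gaps within a mouse given above do not. Of 15897 genes, 157 had values identical to another gene in every mouse.

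Groups came from the labels, and replicate numbers follow deposit order. Two-sided limma 3.58.1 tests with a mean trend (R 4.3.3) were fitted on all genes, with Benjamini-Hochberg adjustment and a threshold of 0.05, as genotype plus diet plus batch for the diet over all genotypes and as 8 groups plus batch for the other contrasts. The test was checked on simulated data with independent noise for each gene. That setting lacks the component shared between genes described above, so the check does not cover error rates in its presence. Named members were up to 14 called members by adjusted p plus a fixed list, 23 in all. Members, lists and tests were chosen with earlier results of these data known. Alternatives covered batch, normalization, expression filter, trend, covariates, length and GC content, copied genes, the groups fitted and each mouse left out. GC content is the median over GENCODE transcripts of a gene. Promoter windows are from RefSeq, matched by symbol for 34 of 36 members, taking the window nearest the gene's 5′ end.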

Additional observations from a re-analysis of the deposited data

Results flagged for a closer look

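Single mice stood apart from the rest of their group in 7 of 200 sets of values examined for a sample far from the others (the named members and list means within groups), and chance flags about 1 in 20 such sets. In A+Tw/TWD, replicate 3 had a Hk1 level of 12.74, below the 13.13 to 13.27 of the others. In AwT+/STD, replicate 3 had a Pkm level of 14.50, below 14.68 to 14.74. In AwTw/STD, replicate 6 had an Ogdh level of 12.55, above 11.98 to 12.17, and replicate 2 had a Fh1 level of 10.37, above 9.80 to 9.99. The same AwTw/STD replicate 2 had a mean citric acid cycle level of 11.29, above 11.04 to 11.12. In AwT+/TWD, replicate 3 had a Suclg1 level of 11.45, above 10.57 to 10.84. In A+T+/STD, replicate 4 had a Sdhb level of 10.54, below 10.81 to 10.85.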

How the results depend on the processing

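Of 19 members called for diet over all genotypes, 0 were called in batch 0 alone and 0 with the residual score as covariate, and leaving out each mouse gave 17 to 24. For diet within AwTw, where 8 were called, the count was 17 in batch 1 alone (4 AwTw mice per diet) and 0 in batch 0 alone (2 per diet). It was also 0 after quantile normalization, without a mean trend, and with the residual score or the mouse label prefix as covariate. Removing length and GC content, or fitting only the AwTw groups, left 0 as well. Leaving out each mouse gave 0 to 20. The threshold fell among tied adjusted p-values, and other causes were not tested. The residual score brought 1 member (Mdh2, -0.26, adjusted p = 0.0371) past the threshold in A+T+ against AwTw on TWD and 1 in A+ against Aw (Mdh2, -0.15, adjusted p = 0.0061). Removing length and GC content brought 1 (Ldha, -0.11, adjusted p = 0.0430) in A+ against Aw and turned Idh3a for diet from -0.01 to 0.22. The fitted difference between the glycolysis and citric acid cycle means was 0.12 to 0.15 with each mouse left out, 0.02 with the residual score and 0.04 in batch 0. Batch 0 alone was not run for contrasts with A+Tw on STD, which had a single mouse there, since fits within a batch were limited to groups of at least 2. No paired analysis was possible because the labels number no replicates and the numbers used here only name mice.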

Other observations

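Among other genes around the pathway, 3 more fell on TWD and were named after their values were seen: the malic enzymes Me1 (-0.20, adjusted p = 0.0374) and Me2 (-0.14, adjusted p = 0.0306), and the pyruvate dehydrogenase phosphatase Pdp2 (-0.15, adjusted p = 0.0333), in the same limma fit. The glucose transporters Slc2a1 (0.23, adjusted p = 0.106) and Slc2a3 (0.02, adjusted p = 0.727) and the pyruvate dehydrogenase kinases Pdk1 to Pdk4, which inhibit the complex, did not pass.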
